A study of Caenorhabditis elegans with 95 samples.

Results

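A set of 112 genes of *Caenorhabditis elegans* gave reads in every library of the laboratory strain N2 (Bristol) and far fewer, or none, in every library of the wild strain CB4856 (Hawaii). They were chosen from 46904 genes in the deposited count table, with each count divided by the total of its library and given in counts per 1000000 (CPM). A gene was kept if its lowest N2 library held at least 1 CPM and at least 8 times the highest CB4856 library, and 13302 genes met the first condition. Both conditions were met by 143 genes (1.08% of 13302), of which 31 were left out by their symbols, among them 10 *fbxa-*, 8 *bath-*, 3 *math-* and 3 *clec-* genes. The N2 and CB4856 values therefore chose the members, and their difference is given as a description with no test.

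The 95 libraries were made from whole worms on 15 μg/mL doxycycline (Dox), an antibiotic that also blocks translation in mitochondria, and untreated worms are not analysed here. The study's methods have them placed on Dox as L1 larvae and collected at L4, the last larval stage. N2 had 4 libraries, CB4856 had 6, and 85 recombinant intercross advanced inbred lines (RIAILs, names starting with QX) had 1 each. The RIAILs come from crosses of CB4856 with QX1430, a strain of N2 background in which confounder genes were deleted, so each line is a fixed mixture of parental segments. The N2 libraries are not libraries of QX1430, and none of QX1430 is used here. The RIAILs took no part in choosing the members. In whole worms, fewer cells of a type and less RNA per cell cannot be told apart.

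Wild *C. elegans* strains differ from N2 most on the arms of the chromosomes, where stretches of divergent sequence hold large families of environmental response genes, such as chemoreceptors and adaptors of ubiquitin ligases. A gene that one parent lacks, or does not transcribe because of a change beside it, is passed to inbred descendants as an on or off state with the segment it lies in. A gene that is off because of a change elsewhere follows that other place instead. All reads here were aligned to the genome of N2, and what this does to the counts of CB4856 alleles was not tested.

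The members were 92 protein-coding genes, 16 pseudogenes, 3 noncoding RNA genes and 1 lincRNA gene (*linc-11*). Pseudogenes made up 14.3% of the members and 2.38% of the 13302 genes at 1 CPM or more in N2. Chromosome V held 47 members, II 37, IV 16, I 7, III 3 and X 2, while each of the 6 chromosomes held between 13.7% (X) and 18.8% (V) of the genes at 1 CPM or more. The stretches outside the central 33.3% of each chromosome held 104 members (92.9%), against 57.7% of all such genes. The median gene length, introns included, was 1658 bp for the members and 2531 bp for all genes at 1 CPM or more.

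Of the 112 members, 42 had 0 counts in all 6 CB4856 libraries and 84 had at most 3 counts in the highest of them. With 22121202 to 23879871 counts per library, 3 counts corresponded to 0.126 to 0.136 CPM, the lowest level treated here as detected. The mean N2 level of a member ran from 1.37 to 247 CPM with a median of 6.57. Just inside the threshold were *F19B10.1* (lowest N2 library 8.13 times the highest CB4856 library), *Y38H8A.8* (8.48 times) and *npl-4.1* (8.60 times). Just outside were *W04E12.5* (7.60 times), *Y75B8A.32* (7.58 times) and *C17B7.8* (7.23 times).

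*Y94H6A.10* on chromosome IV (2710121 is its start in WBcel235) had the largest CPM. Its N2 libraries held 273, 276, 223 and 217 CPM, and its CB4856 libraries held 0 to 7 counts. *Y38E10A.14* on chromosome II had 186, 145, 129 and 145 CPM in N2 and 1 to 6 counts in CB4856. *F19B2.5* on chromosome V had 89.8, 129, 125 and 132 CPM in N2 and 0 to 3 counts in CB4856. The lowest N2 library of *Y94H6A.10* was 723 times its highest CB4856 library, and that of *Y38E10A.14* 495 times. At the other end, *btb-14*, which encodes a protein with a BTB domain, kept 26 to 58 counts in CB4856 against 23.8 to 32.5 CPM in N2. *btb-14* was thus low in CB4856 rather than undetected.

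In the RIAILs each member was called per line. N2-like meant at least the lowest N2 library divided by 2, CB4856-like meant at most 2 times the highest CB4856 library or 2 times the level of 3 counts, whichever was larger, and the rest was intermediate. Of 9520 calls, 4418 were N2-like, 4847 CB4856-like and 255 (2.68%) intermediate. No intermediate line was found for 61 members, and 76 members had at most 1. A member was N2-like in a median of 41 of 85 RIAILs. Of the 112 members, 90 were N2-like in 35 to 50 lines, and 9 in fewer than 30. These counts depend on the width of the ranges, and without the factor of 2 (factor 1) 24 members had at most 1 intermediate line.

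**Figure D1:**
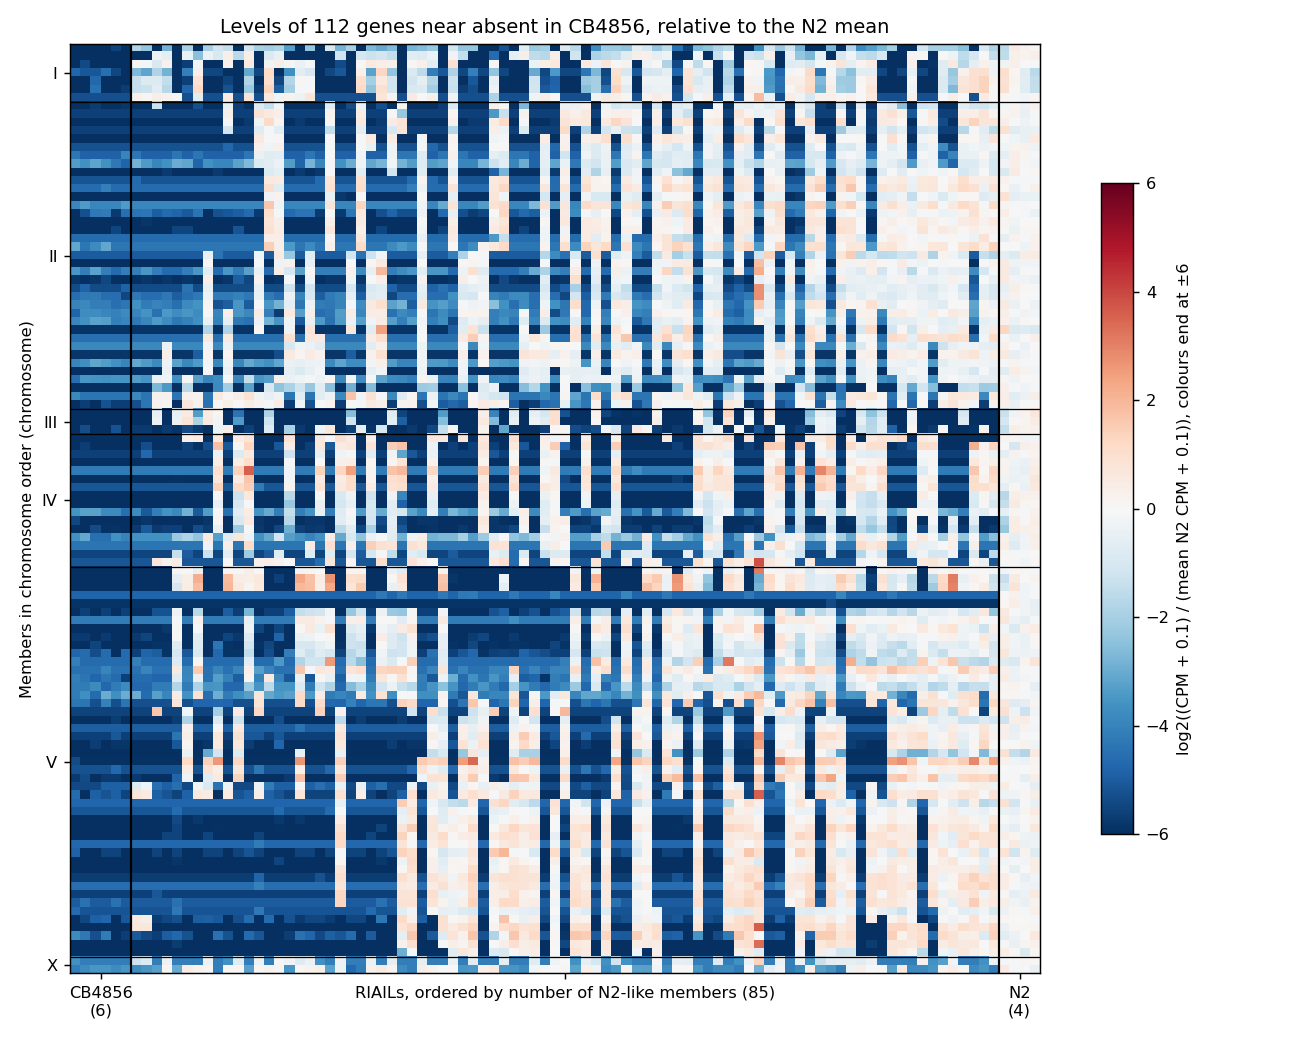
Each row is 1 of the 112 members in chromosome order and each column 1 library, with 6 CB4856 libraries on the left, 85 RIAILs in the middle ordered by their number of N2-like members, and 4 N2 libraries on the right. Colour is log2 of (CPM + 0.1) over (mean N2 CPM + 0.1). Blue blocks spanning neighbouring rows change to pale in the same columns, and 2 adjacent rows on chromosome V stay blue in all 85 RIAILs.

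*Y94H6A.10* gave the widest separation. It was N2-like in 38 RIAILs, at 219 to 549 CPM with a median of 367, and CB4856-like in 47, at 0 to 0.387 CPM. No RIAIL lay between 0.387 and 219 CPM. *ZC204.12* on chromosome II had 71.6, 60.9, 53.3 and 102 CPM in N2, was at 47.4 to 154 CPM in 42 RIAILs and at or under 0.129 CPM in 43. The pseudogene *R07C12.2* on chromosome IV had 91.0, 64.8, 59.99 and 96.7 CPM in N2, was at 64.3 to 163 CPM in 35 RIAILs and at 0 to 0.427 CPM in the other 50. The high and low RIAILs of a gene are told apart by these same CPM values, so they cannot overlap. What the values show is the width of the empty range between them. The widest gap between ordered RIAILs was 10-fold or more, on CPM + 0.1, for 49 of the 112 members, against 87 (0.654%) of the 13302 genes at 1 CPM or more in N2, members included.

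**Figure D2:**
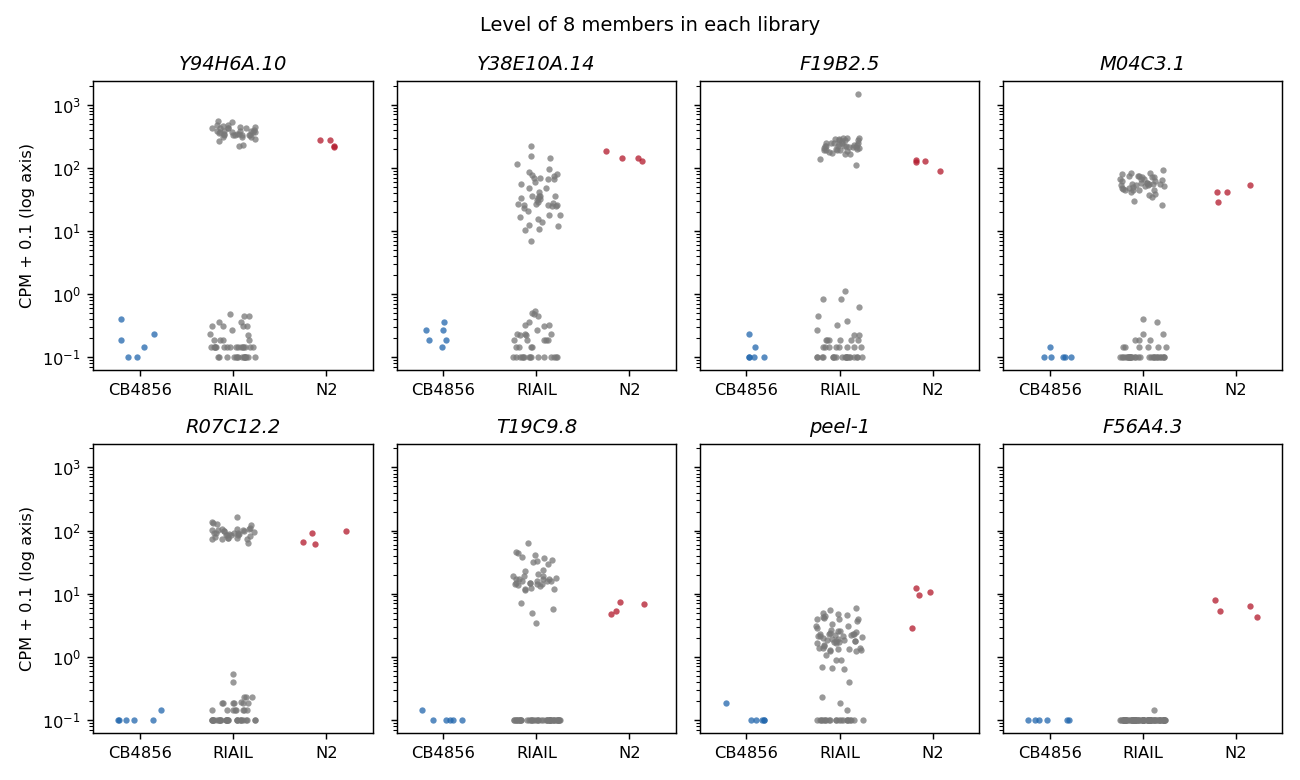
CPM + 0.1 on a log axis for 8 members in each CB4856, RIAIL and N2 library, with 1 point per library. *Y94H6A.10*, *F19B2.5*, *M04C3.1*, *R07C12.2* and *T19C9.8* form an upper and a lower group, *Y38E10A.14* and *peel-1* spread below the N2 libraries, and *F56A4.3* stays at 0 or 1 count in all 85 RIAILs.

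Members were joined into clusters by distance, and the same joining was not run on other genes. With most members on chromosomes II and V, the number joined is not read as a trait of the members. Joining neighbours whose starts were at most 200 kb apart gave 20 clusters with 91 members, of which 13 clusters held 3 or more. The largest, on chromosome V from 19400077 to 19459092 (59 kb in WBcel235), held 13 protein-coding genes from *srw-86*, a chemoreceptor gene, to *Y43F8B.24*. Each of the 13 was N2-like in 42 RIAILs, and no RIAIL held both kinds of call. *M04C3.1*, which had the highest CPM of the block, had 41.4, 28.6, 40.8 and 54.1 CPM in N2 and 0 or 1 count in CB4856. Its N2-like RIAILs were at 25.5 to 93.6 CPM (median 55.3), and the remaining 43 were at 0.299 CPM or less.

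The second cluster by size, on chromosome II from 1929151 to 2417989, held 12 members over 489 kb, from the pseudogene *F52C6.12* to *F42G2.5*. It includes *btb-4*, another BTB-domain gene, and 4 genes of one clone named *K09F6*. Its members were N2-like in 38 to 42 RIAILs, and 8 RIAILs held calls of both kinds. *B0281.3*, the member with the highest CPM there, had 15.98, 12.24, 11.4 and 9.08 CPM in N2. It was at 6.87 to 29.1 CPM in its 42 N2-like RIAILs and at 0.0437 to 0.780 CPM in 42 CB4856-like ones.

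On chromosome IV, 9 members lay between 4123525 and 4346612. They include *scrm-5* and *scrm-8*, homologs of phospholipid scramblases, *oac-52*, an O-acyltransferase homolog, and *R07C12.2*. Their N2-like RIAILs numbered 34 to 36, and 4 RIAILs held both kinds of call. *scrm-5* had 4.22, 17.7, 16.7 and 16.5 CPM in N2 and 0 counts in CB4856, and was at 4.32 to 21.3 CPM in 34 RIAILs. *scrm-8*, at 3.67, 14.8, 11.2 and 10.9 CPM in N2, was likewise lowest in N2 replicate 1 and N2-like in 34 RIAILs.

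On chromosome V from 3284929 to 3417772, 7 members included *scrm-3*, a further scramblase homolog, and *txt-11*. They were CB4856-like in 35 or 36 RIAILs each. On chromosome II from 3177963 to 3374185, 7 members ran from *sri-40*, a chemoreceptor gene, to *linc-11*. *ZC239.6* led that cluster in CPM with 33.1, 18.6, 19.97 and 19.9 in N2, and was at 16.1 to 79.3 CPM in 44 RIAILs and at or under 0.0838 CPM in 41.

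On chromosome I from 11439289 to 11467612, 4 members ended with *bah-1*, a gene needed for bacterial biofilm to attach to the head. *bah-1* had 36.3, 19.8, 11.3 and 6.90 CPM in N2, and *ZK1025.3* beside it had 269, 164, 90.1 and 52.1 CPM. Both genes were highest in N2 replicate 1 and lowest in N2 replicate 4. *ZK1025.3* was at 30.4 to 365 CPM in 48 N2-like RIAILs and at 0.0432 to 6.44 CPM in 35 CB4856-like ones. *sdz-24*, a gene found as a SKN-1-dependent transcript of the early embryo, opened a cluster of 4 on chromosome II (658669 to 1067007). It had 77.9, 97.3, 68.8 and 103 CPM in N2. In the RIAILs, 38 lines were N2-like at 35.3 to 108 CPM and 3 intermediate at 13.4 to 33.7 CPM. The other 44 were CB4856-like at 0.171 to 2.16 CPM, and no RIAIL lay between 2.16 and 13.4 CPM. Its N2-like RIAILs had a median of 55.4 CPM, below all 4 N2 libraries, and 10 lines in place of 38 were N2-like at factor 1.

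The other clusters were smaller. *npl-4.1*, a homolog of the NPL4 cofactor of CDC-48, lay with 2 genes of clone *F59E12* on chromosome II and had 13.5, 16.6, 13.6 and 13.4 CPM in N2. Its CB4856 libraries kept 19 to 36 counts, and its 44 N2-like RIAILs were at 9.14 to 17.5 CPM against 0.609 to 1.68 CPM in the other 41 (10 N2-like lines at factor 1). *npl-4.1* has a near-identical copy, *npl-4.2*, so how the reads were shared between both is uncertain. *skr-4*, which encodes a Skp1-related protein of the SCF ubiquitin ligase, had 12.9, 11.6, 11.96 and 11.2 CPM in N2. It was at 8.68 to 38.9 CPM in 41 RIAILs and at or under 0.486 CPM in 44. *phat-3*, related to a toxin of the pharyngeal glands, was N2-like in 50 RIAILs at 5.75 to 20.3 CPM. Among the members, 8 overlap another member in position, such as *F59E12.15* with *F59E12.6*, and their reads cannot be told apart without a known strand setting.

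**Figure D3:**
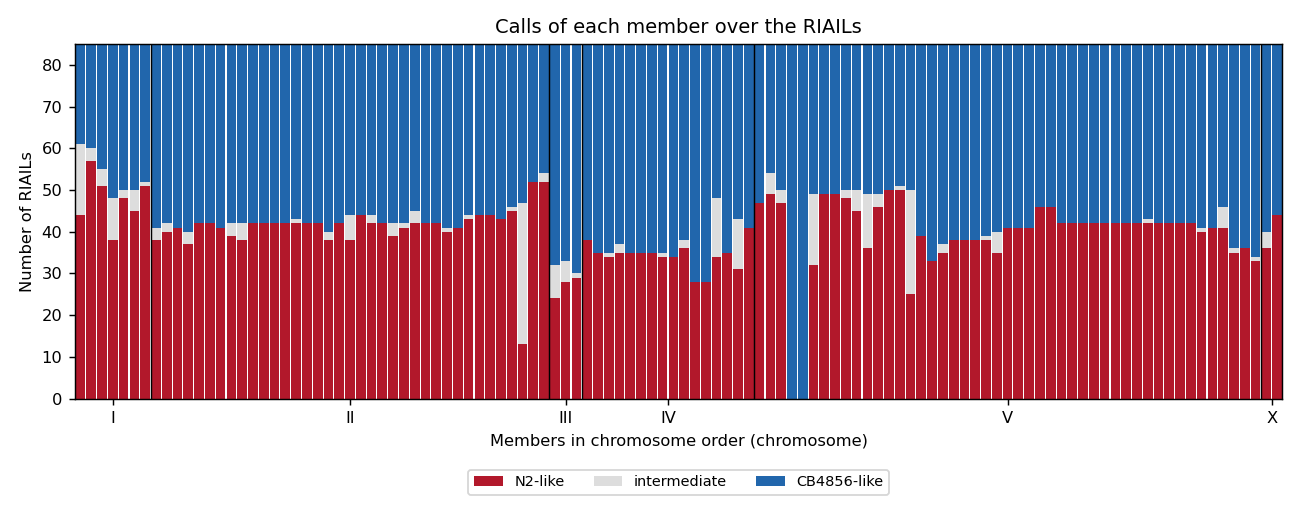
For each of the 112 members in chromosome order, the number of the 85 RIAILs called N2-like (red), intermediate (grey) and CB4856-like (blue). Most red bars end near the median of 41, *Y38E10A.14* on chromosome II has the longest grey bar (34 lines), and 2 members on chromosome V have no red bar.

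Calls were shared over short distances. For 263 pairs of members within a cluster, leaving out 2 members that were off in all RIAILs, 98.7% of 21707 comparisons gave the same call (97.9% with them). Lines in which either member of a pair was intermediate were not compared, so *phat-3* and *D1065.6* were compared in 59 lines. Pairs within 50 kb shared 99.7% of calls, those 50 to 200 kb apart 97.9% and those 0.2 to 1 Mb apart 88.0%. The share was 67.7% at 1 to 5 Mb and 56.6% at 5 to 20 Mb. Pairs on different chromosomes shared 50.04% of calls. These are descriptions, since all pairs come from the same 85 lines.

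**Figure D4:**
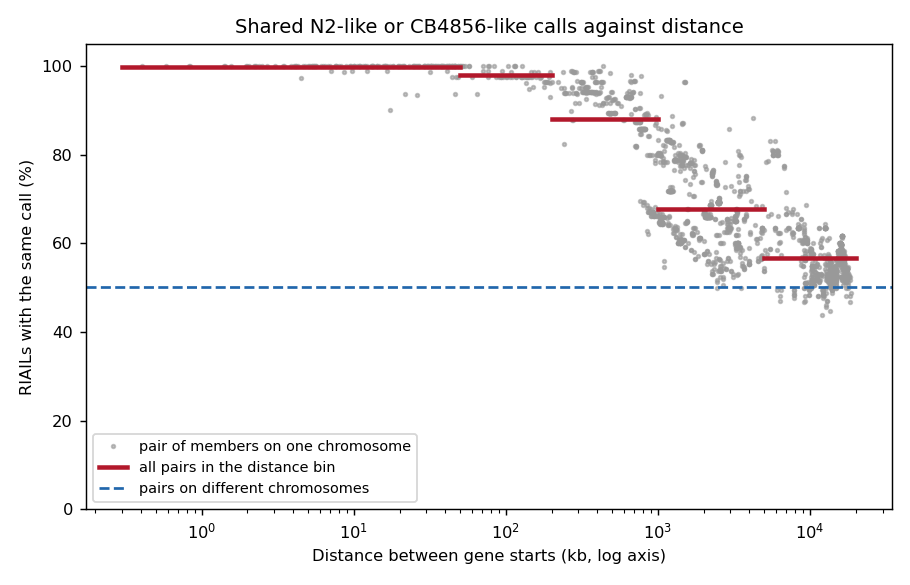
Percent of RIAILs with the same call against the distance between gene starts (log axis), with 1 grey point per pair of members on the same chromosome. RIAILs in which either member of a pair was intermediate are left out. Red lines give all pairs in a distance bin and fall from 99.7% within 50 kb to 56.6% beyond 5 Mb, and the dashed line marks 50.04% for pairs on different chromosomes.

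Members outside the 200 kb clusters could still go together. *kin-21*, a predicted tyrosine kinase gene, and *nspd-7*, of the nematode-specific peptide family group D, lie 436 kb apart on chromosome IV and had the same call in 85 of 85 RIAILs. *nspd-7* had 14.7, 99.3, 89.5 and 86.2 CPM in N2 and was at 9.29 to 92.9 CPM in 28 RIAILs and at 0.505 to 2.08 CPM in 57. Family members close to *nspd-7* in sequence make its counts uncertain. In contrast, *F19B2.5* and *Y113G7B.12*, 46.1 kb apart on chromosome V, differed in 5 of 79 RIAILs in which both were called.

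A called member seldom had the opposite call alone. In 3979 cases a member was N2-like or CB4856-like in a line and the members on both sides shared a call. The member between them had the opposite call 3 times. Lines in which the member between them was intermediate are not among these cases. *ZK1025.4* was CB4856-like in QX515 (5 counts) and QX554 (6 counts), while *C27C7.1* had 651 and 275 counts and *ZK1025.3* 701 and 993 counts there. *F16G10.5* had 3 counts in QX560 between *ZK1240.2* (215 counts) and *F42G2.5* (71 counts).

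Genes lying between members were called in both directions. Of 288 genes inside the cluster spans that were tested and were neither members nor left out by symbol, 69 (23.96%) were called lower and 64 (22.2%) higher in CB4856 (edgeR quasi-likelihood test, Benjamini-Hochberg adjusted p under 0.05). Over all 15718 genes tested, 7.28% were lower and 8.79% higher. The members, which had been chosen for lower levels in CB4856, are not in these counts, so nothing is read from the balance of 69 to 64, and with them and the genes left out by symbol 170 of 389 were lower. *cct-3*, a subunit gene of the CCT chaperonin on chromosome II, was at 297 ± 26.9 CPM in N2 (SD, n = 4) and at 137 ± 12.5 CPM in CB4856 (SD, n = 6), with a log2 difference of -1.01 (SE 0.094, edgeR adjusted p = 3.8e-05). *arrd-22*, an arrestin-domain gene on chromosome V, was at 9.02 ± 1.76 CPM in N2 (SD, n = 4) and 2.10 ± 0.575 CPM in CB4856 (SD, n = 6). Its log2 difference was -2.002 (SE 0.24, edgeR adjusted p = 0.000211). The number of all genes called depended on N2 libraries, being 2525 with all 10 libraries, 4604 without N2 replicate 1 and 1570 without N2 replicate 3. Inside the spans 86 were lower and 75 higher without N2 replicate 1, and 66 and 50 without N2 replicate 3.

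Some genes between members had the mirrored pattern, a comparison chosen after the values were seen. With N2 and CB4856 exchanged, the rule found 76 of 13113 genes (0.58%), and 11 of them lay inside 5 of the 20 clusters. *B0281.5*, in the cluster of 12 on chromosome II, was at 0.0427 to 0.175 CPM in N2 and at 29.3 to 35.4 CPM in CB4856. In the 39 RIAILs where all 12 members were CB4856-like it was at 26.1 to 46.003 CPM, and in the 32 where all were N2-like it was at 0 to 0.564 CPM. *Y102A5C.4*, between 4 members on chromosome V, was at 7.52 to 21.1 CPM in 46 CB4856-like RIAILs and at 0.0426 to 1.00 CPM in 38 N2-like ones. For 10 of the 11 genes the lines did not overlap, against 17 (5.90%) of all 288 tested genes between members and 7 (2.53%) of the 277 outside the mirrored rule. The exception was *K10G4.5*, at 0.907 to 6.09 CPM in 44 CB4856-like lines and 0 to 3.24 CPM in 35 N2-like ones. These 10 genes were high in the lines where the members around them were CB4856-like.

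Other genes of related families were counted from the same comparison, in which 7.28% of all genes tested were lower and 8.79% higher. Members were chosen for lower levels in CB4856 and are left out of the family counts but not of these shares. Nothing is therefore read from the balance of lower and higher calls in a family. Of 169 F-box genes named *fbxb-* or *fbxc-*, none of them members, 25 had enough counts to be tested, and 7 were lower and 7 higher in CB4856. Of 1628 chemoreceptor genes, 86 outside the members were tested, and 4 were lower and 11 higher. *sri-40*, *srw-86* and the pseudogene *srbc-15* are the chemoreceptor genes among the members. Of 21 Skp1-related genes, 12 other than *skr-4* were tested, and 2 were lower and 1 higher. *skr-5* was at 0.785 ± 0.265 CPM in N2 (SD, n = 4) with 0 counts in CB4856, and *skr-6* had 0 counts in N2 and 0.760 ± 0.179 CPM in CB4856 (SD, n = 6). The 2 *skr-* genes were thus detected in opposite strains.

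Of 20 Argonaute genes, which bind small RNAs, 4 were lower and 2 higher, and none was a member. *ppw-1*, which acts in RNA interference in the germline, was at 25.96 ± 5.01 CPM in N2 (SD, n = 4) and 11.9 ± 0.598 CPM in CB4856 (SD, n = 6), a log2 difference of -1.02 (SE 0.12, edgeR adjusted p = 0.000166). *vsra-1* had a log2 difference of -1.32 (SE 0.23, edgeR adjusted p = 0.00314). The 2 higher ones were *sago-2*, with a log2 difference of 1.86 (SE 0.38, edgeR adjusted p = 0.00776), and *alg-2*, with 0.49 (SE 0.13, edgeR adjusted p = 0.0256). Among toxin and antidote genes, *pha-1* was higher in CB4856 by a log2 difference of 0.64 (SE 0.16, edgeR adjusted p = 0.0227), and *sup-35* was not called (adjusted p = 0.372). The calls of *alg-2* and *pha-1* were lost without N2 replicate 2, 3 or 4, and that of *alg-2* also without CB4856 replicate 4 (edgeR adjusted p = 0.0540 to 0.0755). The median log2 difference over the tested genes was 0.31 for the F-box genes, 0.18 for the chemoreceptor genes, -0.13 for the Skp1-related genes and -0.07 for the Argonautes, against -0.00083 over all 15606 genes that were not members. These medians leave out the members, describe the lists and were not tested.

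*peel-1*, the sperm-delivered toxin of a toxin and antidote pair, is a member. Its N2 libraries held 2.74, 12.4, 10.3 and 9.43 CPM and its CB4856 libraries 0 to 2 counts. In the RIAILs it was N2-like in 44 lines at 1.44 to 5.92 CPM, intermediate in 17 at 0.301 to 1.36 CPM and CB4856-like in 24 at 0 to 0.132 CPM. The highest RIAIL was thus below 3 of the 4 N2 libraries. The N2-background parent of the RIAILs was QX1430, in which confounder genes were deleted. The study's text does not name these genes. Whether *peel-1* is among them, and its level in QX1430, is therefore not known here. N2 replicate 1, the lowest N2 library of *peel-1*, held 230 CPM summed over 35 genes of the major sperm protein family (*msp-*). The other 3 held 1639 to 1921 CPM. This sum was 345 to 1855 CPM (median 744) in the *peel-1* N2-like RIAILs and 69.8 to 626 CPM (median 368) in the intermediate ones. In the CB4856-like ones it was 8.08 to 1680 CPM (median 386). *nspd-7*, *kin-21*, *scrm-5*, *scrm-8*, *F26A3.5* and *R07E5.15* were also lowest in N2 replicate 1. Over the whole set 30 of 112 members (26.8%) were lowest in that library, against 38.7% of the 13302 genes, and 37 were lowest in N2 replicate 2. The part of sperm content in these levels was not tested.

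A few other members were graded. Among the 112, 8 had 10 or more intermediate RIAILs. *Y38E10A.14* had 34, with 13 N2-like lines at 65.4 to 224 CPM, the intermediate ones at 6.78 to 59.1 CPM and 38 CB4856-like lines at 0 to 0.434 CPM. No RIAIL lay between 0.434 and 6.78 CPM, so the lines split as in the other members, but the upper group reached below the N2 libraries. The number of N2-like lines of this gene was 3 at factor 1 and 47 with a single threshold at the geometric mean of the parental limits. Its nearest member, *btb-14* at 240 kb, was N2-like in 29 of the 34 intermediate lines and CB4856-like in 4. *D1065.6*, a noncoding RNA gene on chromosome V, had 25 intermediate lines at 0.339 to 0.893 CPM, and *phat-3*, 20.2 kb away, was N2-like in all 25. *F35F10.5* had 17, in all of which *scrm-3*, 70.9 kb away, was N2-like. In *Y38H8A.8*, a pseudogene on chromosome IV, 12 of 14 intermediate lines were CB4856-like at the nearest member, *Y45F10C.6*. Over the 8 genes, the nearest member was N2-like in most of the intermediate lines for 7, and *Y38H8A.8* was the exception. Distances for the 7 were 1.56 to 5315 kb. The farthest, *F26A3.5* for *peel-1*, was N2-like in 14 of 17 intermediate lines and in 57 of all 85 RIAILs. Little is therefore read from that entry.

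2 members were near absent from all RIAILs. *srbc-15*, a pseudogene of a chemoreceptor family at 2345676 to 2348123 on chromosome V, had 2.74, 3.24, 2.30 and 2.45 CPM in N2 (53 to 76 counts per library). *F56A4.3*, a protein-coding gene at 2453414 to 2456147, had 6.37, 7.81, 5.11 and 4.10 CPM (94 to 183 counts). Both had 0 counts in all CB4856 libraries. Over 85 RIAILs *srbc-15* had 15 counts in total and *F56A4.3* had 1. Both were CB4856-like in every line, and 0 of 85 lines allows a share of up to 3.53% if 3 lines are taken as the limit, or 4.25% by the upper bound of the exact 95% binomial (Clopper-Pearson) interval, counting error only.

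With the highest RIAIL put in place of the highest CB4856 library, the same rule found these 2 genes among 13302 (0.015%). The members on their left did segregate. *pud-3* and *pud-4*, named for proteins raised in *daf-2* insulin receptor mutants, start at 2324634 and 2326678 and were N2-like in 49 and 47 RIAILs and CB4856-like in 31 and 35. They had the same call in all 78 lines in which both were called. *pud-3* had 16.9, 63.5, 45.4 and 51.5 CPM in N2 and 8.63 to 390 CPM in its N2-like RIAILs. The N2-like state of the neighbours therefore came with almost no counts of *srbc-15* or *F56A4.3* in these lines. Only RNA was counted, so genes missing from the RIAILs and genes present without transcripts cannot be told apart. QX1430 itself was not measured, so whether it had or transcribed both genes is not known here.

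Some N2-like RIAILs were above the N2 libraries. Of the 112 members, 40 had at least 1 RIAIL at more than 2 times the highest N2 library, against 13.4% of the 13302 genes, and 7 had 10 or more such RIAILs, against 1.89%. *T19C9.8* on chromosome V had 29. It was at 7.17, 5.16, 4.59 and 6.68 CPM in N2, at 3.35 to 64.4 CPM (median 16.6) in 41 N2-like RIAILs and at 0 in the other 44. *F47H4.2*, in the same cluster, had 17 such lines, with 5.15 to 9.65 CPM in N2 and 4.77 to 39.3 CPM in N2-like RIAILs. *R08E5.1* had 12, *R07C12.1* and *K09F6.7* 11 each, and *pud-3* and *F19B2.5* 10 each. In these 7 genes part of the N2-like lines thus exceeded every N2 library.

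1 line stood out among the highest values, and it was singled out after the values were seen. QX571 was N2-like for 62 members. It was the highest of the 85 RIAILs for 21 of the 112 members, all N2-like there, against 7.94% of the 13302 genes. Of the 96 members that are not pseudogenes, it was highest for 11. All 10 pseudogene members that were N2-like in QX571 were highest there. QX571 was the highest RIAIL for 144 of 316 pseudogenes at 1 CPM or more in N2 (45.6%) and for 897 of 12893 protein-coding genes (6.96%). *F19B2.5* was at 1469 CPM in QX571, against 296 CPM in the next RIAIL and 132 CPM in the highest N2 library. The pseudogene *F59A7.8* was at 242 CPM, against 35.8 CPM in the next RIAIL, and *Y7A9C.1*, another pseudogene, at 50.8 against 7.02 CPM. Without QX571, a setting chosen after seeing the data, 29 members had a RIAIL above 2 times the highest N2 library. With 1 library of QX571, a trait of the line and of the library cannot be told apart.

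**Figure D5:**
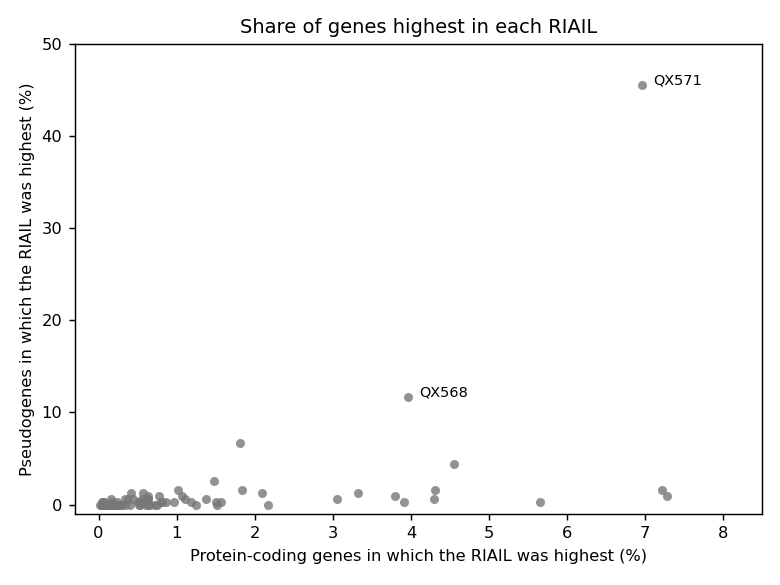
Each point is 1 of the 85 RIAILs. The horizontal axis gives the percent of 12893 protein-coding genes in which that RIAIL was the highest, and the vertical axis the same for 316 pseudogenes. QX571 lies at 6.96% and 45.6%, and QX568 comes next on the vertical axis at 11.7%.

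Lines differed widely in how many members were on. The number of N2-like members ran from 9 in QX517 to 96 in QX492, with a median of 50 of 112. Library series, the letters A to G in the library names, were also compared. Of 110 members tested over the 85 RIAILs, 1 (*txt-11*, adjusted p = 0.0174) was called for a difference among the 7 series with edgeR's quasi-likelihood test, against 61.4% of all 16686 genes. With limma-voom and with DESeq2 no member was called, and 2 and 0 members had an unadjusted p under 0.05. Within every series, 103 of the 112 members had lines of both kinds, and this spread enters the test, so the count is not read against that of all genes.

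Markers of muscle, intestine, neurons, hypodermis and germline were detected in all 95 libraries. QX501 was the highest library for all 6 genes of a list of male markers, such as *mab-3* at 56.5 CPM against a median of 4.84 CPM. Without QX571 and QX501, a setting also chosen after seeing the data, a member was N2-like in a median of 40 RIAILs, and members of a cluster shared 97.9% of calls. Whether the libraries of a parental strain are separate cultures is not stated, so the p-values refer to the spread among these libraries, which may be technical.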

How the data were processed

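Whole-worm RNA was sequenced on the BGISEQ-500 platform. Reads were checked with FastQC and aligned to WBcel235 with STAR (2.73a), and the authors deposited raw read counts per gene, which were used as they stand. For the counter, its strand setting and the annotation release, nothing is given in the sources used here. The genome is that of N2, and how this affects counts of CB4856 alleles was not tested. Totals were 22121202 to 23879871 counts per library, and intervals and floors cover counting error only.

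Positions and types came from Ensembl release 115 of the same build, and symbols from a gene table and, for genes without one, from RefSeq genes at identical positions. Of 46904 genes, 46817 were matched. The members and lists were chosen with earlier results of these data known. Calls in RIAILs and clusters were made in Python 3.11.15 with pandas 2.3.3.

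N2 (4 libraries) was compared with CB4856 (6), and the 7 library series over 85 RIAILs, with edgeR 4.0.16 in R 4.3.3 (TMM, filterByExpr, quasi-likelihood test, Benjamini-Hochberg adjusted p under 0.05 over all genes tested). Alternatives used limma 3.58.1 (voom), DESeq2 1.42.0, RLE size factors, no filter on low counts, replicate numbers as a block, other thresholds and leaving out each parental library. The titles of 4 libraries of each strain carry a batch number, and on that ground the numbers 1 to 4 were taken to pair them, although the deviations of same-numbered libraries from their group means correlated at 0.68, 0.19, 0.09 and -0.51. The libraries of batch 1 lie in series B (N2) and C (CB4856) and those of batch 2 in D and E, while the other pairs share a series. Library series did not enter the comparison of N2 with CB4856. In simulated counts for N2 against CB4856, 50% of 2-fold and 100% of 4-fold changes were recovered among 15718 genes.

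Named members are the 20 with the highest mean N2 CPM, the highest of each cluster of 3 or more, those N2-like in no RIAIL, and 3 genes on either side of the threshold. Further members were named after their values were seen. The labels describe plates with 5FU for lifespan, and the study's methods give 5FU as 5-fluorodeoxyuridine. Whether the RNA samples saw it is not settled. QX590 is not analysed here.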

Additional observations from a re-analysis of the deposited data

Results flagged for a closer look

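For the named members, a library was marked where its gap to the nearest of its group was large against the range of the group (Dixon's test at the 95% level). About 1 group in 20 is marked by chance. In N2, replicate 1 stood apart 5 times. It was lowest for *F19B2.5* at 89.8 CPM (next 125 CPM), *nspd-7* at 14.7 CPM (next 86.2 CPM), *F26A3.5* at 12.5 CPM (next 41.1 CPM) and *R07E5.15* at 7.76 CPM (next 24.5 CPM), and highest for *ZC239.6* at 33.1 CPM (next 19.97 CPM). This library also had the lowest summed CPM of *msp-* genes in N2, at 230 CPM, whose part in these values was not tested. Among the 13302 genes at 1 CPM or more in N2, 38.7% were lowest in this library. Its marks are therefore not read as particular to the members. *npl-4.1* was highest in N2 replicate 2 at 16.6 CPM (next 13.6 CPM).

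In CB4856, replicate 1 was highest for *ZK1025.3* at 5.40 CPM (next 1.62 CPM) and for *bah-1* at 0.734 CPM (next 0.255 CPM), which lie in the same cluster on chromosome I. Replicate 5 was lowest for *btb-14* at 1.13 CPM (next 2.24 CPM) and for *F19B10.10* at 0.566 CPM (next 1.03 CPM).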

How the results depend on the processing

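The number of members was 112 and ranged from 88 to 145 under other thresholds. It was 117 when symbols came from the gene table alone, chosen after seeing the data. Leaving out each parental library in turn gave 112 to 135. As the rule uses the lowest N2 and the highest CB4856 library, leaving 1 out can only add members. A stricter call in RIAILs (factor 1 in place of 2) left 24 members with at most 1 intermediate line in place of 76, and N2-like lines fell from 44 to 10 for *npl-4.1*, 38 to 10 for *sdz-24*, 45 to 25 for *btb-14*, 48 to 30 for *C04E12.2*, 42 to 21 for *F19B10.1* and 13 to 3 for *Y38E10A.14* (47 with 1 threshold). The number of genes called between the strains was 2525, ranged from 1570 to 4604 without each library in turn, and was 1566 in the 8 libraries numbered 1 to 4 with no replicate block and 1900 with a replicate block. Inside the cluster spans 81 genes were lower with the replicate block, 62 to 86 without each library in turn (50 to 75 for higher calls), and 116 of 633 with no filter on low counts, where more genes were tested. The block changed no call of *cct-3*, *arrd-22*, *ppw-1*, *vsra-1*, *sago-2*, *alg-2*, *pha-1*, *sup-35*, *skr-5* or *skr-6*. Other genes named outside the members were not followed over these settings. For library series limma-voom and DESeq2 called 0 members, and the cause was not tested. Of the other alternatives to main results, 82 stayed within 1.5 times the main value. Each RIAIL had 1 library, so the spread within a line is not known.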
